A study of Arabidopsis thaliana with 14 samples.

Results

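The genes described here encode the expansins, the xyloglucan endotransglucosylase/hydrolases (XTH) and the trichome birefringence-like proteins (TBL) of Arabidopsis thaliana, 3 families that act on the plant cell wall. Members were chosen by name: every nuclear gene whose symbol in the TAIR10.1 reference begins with EXPA, EXPB, EXLA, EXLB, XTH or TBL and a digit, and which the array annotation pairs with a probe set of exactly 1 gene. This gave 49 genes of the 13356 with such a probe set, namely 18 expansins, 9 XTHs and 22 TBLs, each measured by 1 probe set. The reference holds 104 protein-coding genes with such names (33 expansins, 30 XTHs and 41 TBLs), so most genes of these names were not analysed here.

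Whole rosettes of Columbia-0 plants aged 5-6 weeks were harvested while the night was prolonged past its usual end, with 3 rosettes to a sample. The plants had last been kept under a 14 h photoperiod at 20 °C, and all groups shared the same genotype and growth. Affymetrix ATH1 arrays were hybridised at -2 h, which is before the night's end (1 array), at the end of the night (0 h; 3 arrays, A, B and C), and then in the extended night at 2 h (1 array), 4 h (2 arrays, A and B), 6 h (1 array), 8 h (2 arrays, A and B), 24 h (2 arrays, B and C) and 48 h (2 arrays, B and C). Arrays are named below by hour and letter, such as 4 h A, and values of a time point are in letter order. Nothing in the labels says whether lettered arrays came from separately grown plants, so p-values reflect just the scatter among these samples, which may be technical. The series follows transcripts while darkness continues past the hour at which the plants were used to light.

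A growing plant cell enlarges when its wall yields to internal pressure. Alpha- and beta-expansins (EXPA, EXPB) loosen the wall without cutting its polymers, most strongly at acid pH, whereas the expansin-like proteins (EXLA, EXLB) share their fold but have no settled wall-loosening activity. XTH enzymes cut xyloglucan, the main hemicellulose of the primary wall in plants such as Arabidopsis, and join the cut chain to another chain or to water. Many TBL proteins are Golgi enzymes that add acetyl groups to wall polysaccharides before these are secreted, and the family is named after TBR, whose mutant has trichomes with little birefringence.

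Values are log2 signals after the authors' robust multi-array average (RMA), so a difference of 1 is a 2-fold change. A member was called when its limma p-value, adjusted over all 22746 probe sets tested, was under 0.05. Levels are compared only within a probe set. Because whole rosettes were measured, fewer cells of a type and less transcript per cell cannot be told apart. The 25S rRNA control signal of 48 h B stood apart, at 8.98 log2 units against 11.05 to 13.78 on the other 13 arrays, and its part in the 48 h results was not tested beyond leaving it out. Samples of 24 h and 48 h share their hour of the day with 0 h, whereas samples of 2 h to 8 h were taken in what would have been daytime, so up to 8 h the hour of the day and the time in darkness cannot be told apart. Of the leaf and photosynthesis markers, 7 of 19 were measured, given here by their lowest to highest levels over the 14 arrays. These were 13.67 to 14.01 for LHCB4.1, 12.27 to 13.92 for LHCB4.2, 6.97 to 11.58 for LHCB4.3 and 9.85 to 14.03 for RCA. PSBY read 12.22 to 13.29, PRK 10.27 to 13.47 and SBPASE 8.45 to 12.85. No flower, seed or xylem marker had a probe set used here, and of the root markers only PYK10 had, at 7.65 to 9.47.

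Across the 3 families, most calls were falls. At 4 h, 8 of 49 members were lower and 3 higher than at the end of the night (16.3% and 6.12%), beside 8.78% and 7.49% of all probe sets. At 8 h 14 were lower and 4 higher (28.6% and 8.16%), beside 15.0% and 12.7%. At 24 h the counts were 12 lower and 4 higher (24.5% and 8.16%), beside 17.2% and 15.5%, and at 48 h 14 lower and 2 higher (28.6% and 4.08%), beside 20.3% and 20.5%. Leaving out 4 h A or 4 h B gave fewer 4 h falls, among members and among all probe sets alike. Leaving out 8 h B likewise gave fewer 8 h rises in both. Without 48 h B, whose rRNA control stood apart, some 48 h differences moved. That of TBL25 became -0.41 and that of EXLB1 -1.79, against -0.65 and -1.06 with it. Without letters as a block, no member was called in opposite directions at different times. In that fit 17 were lower in at least 1 of these 4 comparisons and 4 were higher in at least 1. The other 28 were called in none. Beside this, 15.5% of the dimmest 33.3% of all probe sets and 63.7% of the others were called in at least 1. Among members these were 1 of 18 and 20 of 31, and no difference from those shares was tested. With letters as a block, EXLA2 was higher at 4, 8 and 24 h and lower at 48 h (-0.29, adjusted p = 0.0449). The F-test over all 8 time points called 19 of the 49, which is 8 expansins, 3 XTHs and 8 TBLs, beside 35.5% of all probe sets.

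**Figure D1:**
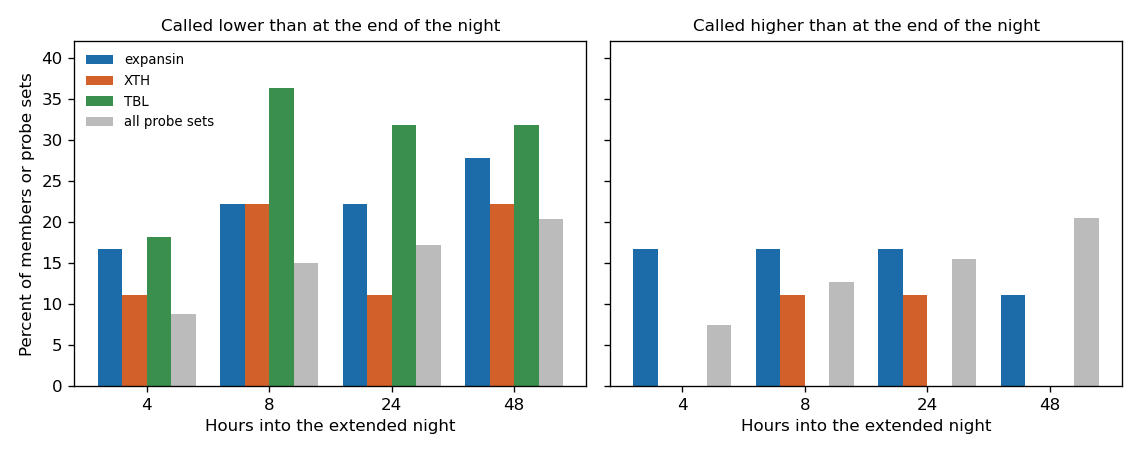
Percent of each family's members (18 expansins, 9 XTHs, 22 TBLs) and of all 22746 probe sets called lower (left) or higher (right) than at the end of the night, at an adjusted p under 0.05, by hours into the extended night. Without letters as a block, as plotted, TBL bars stand on the left only, and expansins are the family with bars on both sides at every time.

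The calls are given here by family, with no test of a difference between families. The shares of all probe sets at these times are those given above. Expansins went both ways: 3, 4, 4 and 5 of 18 were lower at 4, 8, 24 and 48 h and 3, 3, 3 and 2 were higher. Of the 9 XTHs, 1, 2, 1 and 2 were lower and 0, 1, 1 and 0 higher at the same times. TBLs had 4, 8, 7 and 7 of 22 lower and 0 higher at each time by limma. Without 4 h A the lower members at 4 h were 1 expansin, 0 XTHs and 1 TBL, and without 4 h B they were 0, 1 and 2. With letters as a block 2, 2, 2 and 3 XTHs and 5, 9, 7 and 8 TBLs were lower at 4, 8, 24 and 48 h. In that fit 1 TBL (TBL18) was higher at 24 h and at 48 h. Calls rose over all probe sets too: with the block 3238, 4430, 4884 and 5522 were lower, against 1997, 3417, 3902 and 4623 without it. A count of 1 higher TBL was also reached at 24 h without 0 h C and at 48 h without 48 h C. The lower XTHs numbered 2 at 4 h without either 8 h or either 48 h array and 2 at 24 h without 24 h C or either 48 h array, and the higher XTHs numbered 0 at 8 h without 8 h B and 1 at 48 h without either 8 h array. At an unadjusted p under 0.05 the higher TBLs numbered 0, 0, 1 and 0, and the higher XTHs at 4 h and 48 h numbered 0 and 1. The median log2 differences over all members of a family at 48 h were -0.19 for expansins, -0.06 for XTHs and -0.15 for TBLs, beside 0.03 for all probe sets. At 4, 8 and 24 h the expansin medians were 0.06, 0.02 and 0.01, beside -0.02, 0.01 and 0.02 for all probe sets. Those of XTHs were -0.08, -0.11 and -0.03, and those of TBLs -0.07, -0.14 and -0.23.

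**Figure D2:**
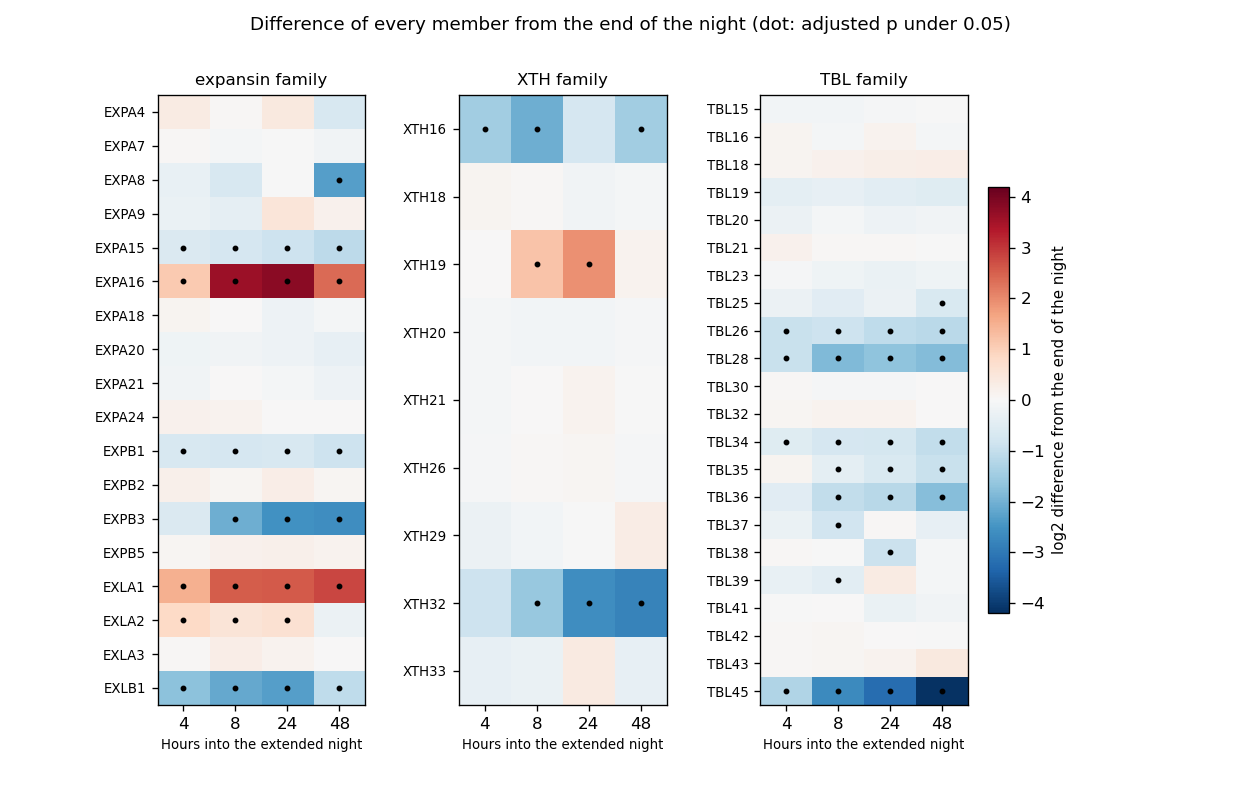
The log2 difference from the end of the night of all 49 members at 4, 8, 24 and 48 h, in a panel for each family. Red is higher and blue lower in the extended night, and a dot marks an adjusted p under 0.05. The darkest red cells are EXPA16 at 8 h and 24 h (3.60 and 3.78) and the darkest blue cell is TBL45 at 48 h (-4.14).

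Among the 10 alpha-expansins, 1 rose, 1 was lower from 4 h onwards and 1 was called lower at 48 h alone. EXPA16 (AT3G55500) had the largest rise of the 49 members. It stood at 6.88, 6.64 and 6.30 log2 units on the end of night arrays, at 7.63 and 7.79 on the 4 h arrays, at 9.97 and 10.44 at 8 h, at 10.34 and 10.43 at 24 h, and at 8.46 and 9.52 at 48 h. All 8 later replicated arrays lay above all 3 end of night arrays. The rise was 3.60 ± 0.29 at 8 h (12.1-fold, adjusted p = 2.56e-05), 3.78 ± 0.29 at 24 h (13.7-fold, adjusted p = 1.31e-05) and 2.38 ± 0.29 at 48 h (5.22-fold, adjusted p = 1.34e-04), where ± is the limma standard error. The smaller rise at 4 h, 1.11 ± 0.29 (adjusted p = 0.0311), lost its call without 4 h A (1.19, adjusted p = 0.121) or B (1.03, 0.177) and without 0 h B (1.12, 0.0697) or C (0.95, 0.0916).

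EXPA15 (AT2G03090) fell at all 4 times. It read 7.86, 7.64 and 8.15 at 0 h, 7.22 and 7.30 at 4 h, 7.29 and 7.05 at 8 h, 6.89 and 7.14 at 24 h, and 6.63 and 6.96 at 48 h, with no overlap between any later group and the end of the night. The fall was -0.62 ± 0.17 at 4 h (adjusted p = 0.0367), -0.71 ± 0.17 at 8 h (0.0121), -0.87 ± 0.17 at 24 h (0.00358) and -1.09 ± 0.17 at 48 h (2.13-fold, 6.68e-04). Its 4 h call was lost without 0 h A (-0.64, adjusted p = 0.0805) or C (-0.49, 0.0944) and without 4 h A (-0.58, 0.2) or B (-0.66, 0.139), and its 8 h call without 8 h B (-0.59, 0.0989).

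EXPA8 (AT2G40610) behaved otherwise. It read 9.02, 9.29 and 9.53 at 0 h, 8.47 and 9.44 at 4 h, 8.58 and 8.60 at 8 h, 9.09 and 9.47 at 24 h, and then 6.28 and 7.68 at 48 h. The 24 h arrays lay inside the end of night range, and both 48 h arrays lay below every other array of the series. The fall at 48 h was -2.30 ± 0.40 (4.92-fold, adjusted p = 0.00114), a call kept without either 48 h array. At 4, 8 and 24 h the differences of -0.33, -0.69 and 0.00 had adjusted p = 0.713, 0.261 and 1. EXPA4 (AT2G39700) had a low 48 h B array too, with 7.36 on B and 8.89 on C at 48 h against 8.48 to 8.98 at the end of the night, and was not called (-0.68 ± 0.40, adjusted p = 0.229).

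Beta-expansins moved downwards where they moved. EXPB3 (AT4G28250) read 8.61, 8.17 and 8.46 at 0 h, 7.75 and 7.88 at 4 h, 6.66 and 6.10 at 8 h, 6.10 and 5.65 at 24 h, and 6.00 and 5.61 at 48 h. The 24 h and 48 h values occupy the same low range. The fall was -2.03 ± 0.22 at 8 h (adjusted p = 1.20e-04), -2.53 ± 0.22 at 24 h (5.79-fold, 2.31e-05) and -2.60 ± 0.22 at 48 h (6.07-fold, 1.08e-05). At 4 h the difference was -0.60 ± 0.22 (adjusted p = 0.101), and with letters as a block -0.69 (adjusted p = 0.0316).

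EXPB1 (AT2G20750) took a single step down. It read 6.42, 6.48 and 6.39 at the end of the night and 5.85 on the lone 2 h array, and then 5.82 and 5.70 at 4 h, 5.71 and 5.74 at 8 h, 5.84 and 5.69 at 24 h, and 5.40 and 5.73 at 48 h. All later arrays lay below all end of night arrays, and the lone 2 h array lay just above the highest of the later ones. The differences were -0.67, -0.71, -0.66 and -0.87 (± 0.12) at 4, 8, 24 and 48 h, with adjusted p = 0.00490, 0.00184, 0.00213 and 2.90e-04. Without 4 h B the 4 h call was lost (-0.61, adjusted p = 0.0546). EXPB2 and EXPB5 were called at no time.

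Of the 4 expansin-like genes, 2 rose, 1 fell and 1 was not called. EXLA1 (AT3G45970) read 6.79, 6.63 and 6.52 at 0 h, 7.83 and 8.45 at 4 h, 8.82 and 9.57 at 8 h, 9.20 and 9.27 at 24 h, and 9.52 and 9.35 at 48 h. Its rise was kept through the second day, with the 24 h and 48 h arrays within the 8 h range. It rose by 1.49 ± 0.23 at 4 h (adjusted p = 0.00255), 2.55 at 8 h (5.17e-05), 2.59 at 24 h (3.17e-05) and 2.79 at 48 h (6.93-fold, 1.13e-05), and each of these calls was kept in all alternatives of fit and scaling and without any 1 array. It also passed the stricter threshold of adjusted p under 0.01 at each of the 4 times.

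EXLA2 (AT4G38400), which has been linked to the response to necrotrophic fungi, was highest at 4 h and came back by 48 h. It read 7.04, 7.26 and 7.08 at 0 h, 7.93 and 7.97 at 4 h, 7.50 and 7.84 at 8 h, 7.87 and 7.67 at 24 h, and 7.04 and 6.70 at 48 h. The 4, 8 and 24 h arrays lay above the end of night arrays, and both 48 h arrays lay below them, 1 by less than 0.01. The rise was 0.83 ± 0.15 at 4 h (adjusted p = 0.00483), 0.54 at 8 h (0.0217) and 0.65 at 24 h (0.00777). At 48 h the difference was -0.26 (adjusted p = 0.212), and -0.29 with letters as a block (adjusted p = 0.0449). The 8 h call was lost without 8 h B (0.37, adjusted p = 0.185) and without 0 h A (0.50, 0.0668) or C (0.52, 0.0595), and the 24 h call without 24 h B (0.55, 0.0727).

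EXLB1 (AT4G17030) fell most among the expansins at 4 h. It read 8.91, 8.99 and 8.68 at 0 h, 7.18 and 7.08 at 4 h, 6.57 and 6.83 at 8 h, 6.50 and 6.63 at 24 h, and 8.53 and 7.07 at 48 h. The fall was -1.73 ± 0.33 at 4 h (3.32-fold, adjusted p = 0.00704), -2.16 at 8 h (0.00105), -2.30 at 24 h (4.92-fold, 5.73e-04) and -1.06 at 48 h (0.0289). The 48 h value rested on 1 array: it was -1.79 (adjusted p = 4.75e-05) without 48 h B and -0.34 (0.153) without 48 h C. The 48 h call was also lost without 0 h A (-1.04, adjusted p = 0.0695) or B (-1.0, 0.0759) and with only the 2 time points in the fit (0.0979), and the 4 h call without 4 h A (-1.78, 0.0505) or B (-1.68, 0.0591).

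**Figure D3:**
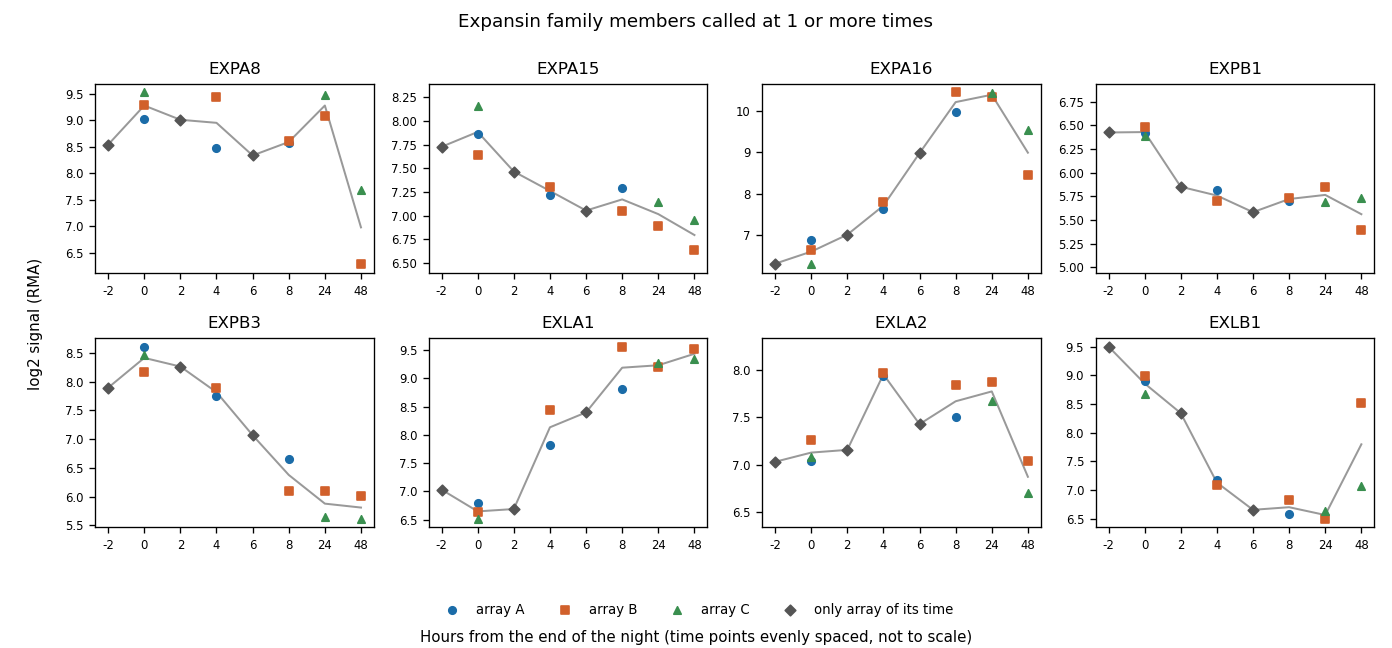
The log2 signal on each of the 14 arrays for the 8 expansins called at 1 or more times, against hours from the end of the night (time points evenly spaced). Blue circles, orange squares and green triangles are arrays A, B and C, grey diamonds are the only array of their time, and the grey line joins time point means. EXPA16 and EXLA1 climb through 8 h, EXPB3 and EXLB1 drop through 8 h, and EXPA8 drops at 48 h.

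The other 10 expansins (EXPA4, EXPA7, EXPA9, EXPA18, EXPA20, EXPA21, EXPA24, EXPB2, EXPB5 and EXLA3) were called at none of these times. Their differences from the end of the night lay between -0.68 and 0.50, and their smallest adjusted p was 0.0620. EXPA7 and EXPA18, which act in root hairs, lay at 5.71 to 6.32 and 5.31 to 5.89 over the 14 arrays.

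In the XTH family 3 of 9 members were called at 1 or more of the 4 times, each with its own course. The F-test over 8 time points called the same 3, beside 35.5% of all probe sets. No difference from that share was tested. XTH32 (AT2G36870), of the subgroup in which xyloglucan hydrolase activity is known, fell without return. It read 9.27, 8.95 and 9.59 at 0 h, 8.39 and 8.38 at 4 h, 8.07 and 7.31 at 8 h, 6.39 and 6.91 at 24 h, and 6.20 and 6.76 at 48 h. The fall was -1.58 ± 0.28 at 8 h (2.99-fold, adjusted p = 0.00235), -2.62 at 24 h (6.15-fold, 8.72e-05) and -2.79 at 48 h (6.92-fold, 3.59e-05). At 4 h both arrays lay below the end of night arrays, with a difference of -0.88 ± 0.28 (adjusted p = 0.0630), and -0.75 with letters as a block (adjusted p = 0.00772).

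XTH16 (AT3G23730) was lowest at 8 h and higher again on the next clock morning. It read 8.41, 8.43 and 8.41 at 0 h, 6.74 and 7.15 at 4 h, 6.38 and 6.35 at 8 h, 7.37 and 8.03 at 24 h, and 6.54 and 7.37 at 48 h. Every later array was below the closely spaced end of night arrays. It fell at 4 h (-1.47 ± 0.25, adjusted p = 0.00422), 8 h (-2.05, 4.14-fold, 2.95e-04) and 48 h (-1.46, 0.00124). At 24 h the difference was -0.72 ± 0.25 (adjusted p = 0.0578), and -0.80 with letters as a block (adjusted p = 0.0118). Without 4 h A the 4 h call was lost (-1.26, adjusted p = 0.0530).

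XTH19 (AT4G30290), which with XTH20 takes part in the healing of cut stems, was the XTH that rose. It read 5.68, 5.57 and 5.13 at 0 h, 5.30 and 5.67 at 4 h, 6.30 and 7.01 at 8 h, 7.62 and 7.17 at 24 h, and 5.73 and 5.48 at 48 h. The 8 h and 24 h arrays stood above all others, while the 4 h and 48 h arrays overlapped or adjoined the end of night range. It rose by 1.19 ± 0.25 at 8 h (2.29-fold, adjusted p = 0.00607) and by 1.93 ± 0.25 at 24 h (3.82-fold, 2.95e-04), and differed by 0.14 at 48 h (0.711). Without 8 h B the 8 h call was lost (0.84, adjusted p = 0.0620).

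**Figure D4:**
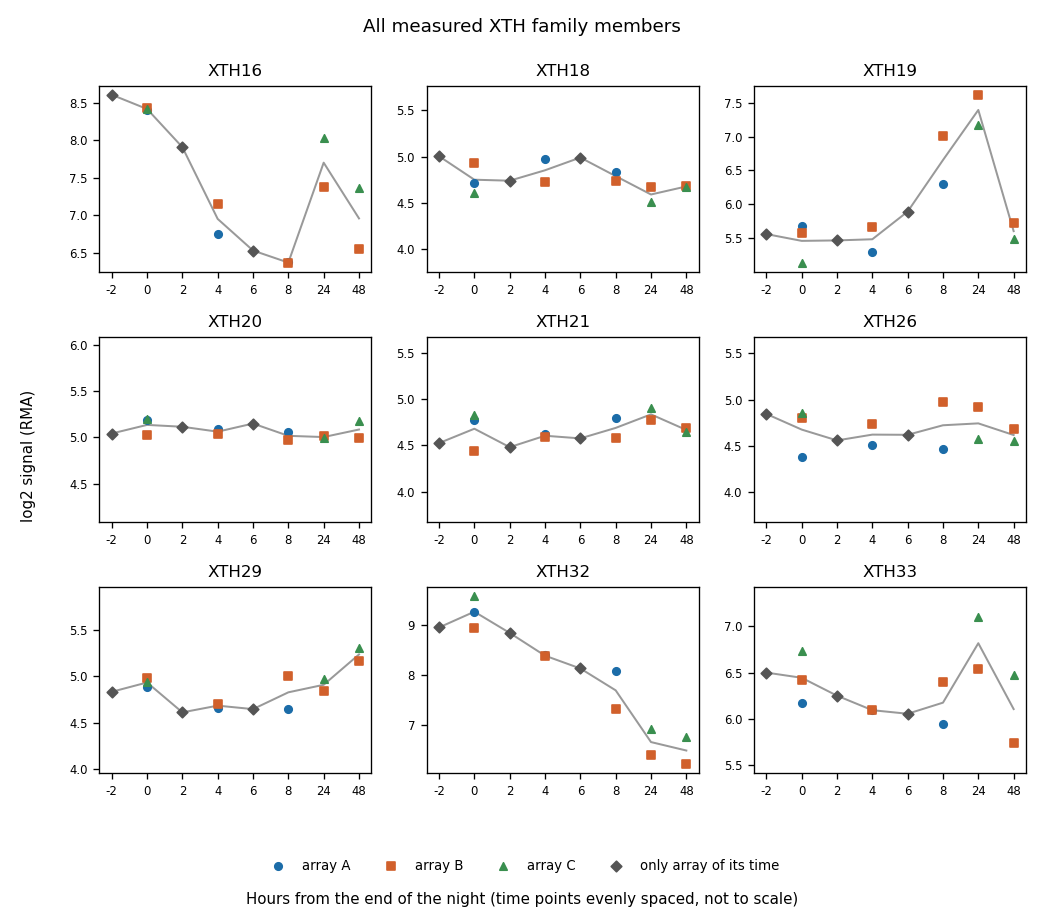
The log2 signal on each of the 14 arrays for all 9 measured XTHs, against hours from the end of the night (time points evenly spaced), with markers for arrays A, B and C and for times with a single array and a line through the time point means. XTH16, XTH19 and XTH32 move over more than 2 log2 units, XTH33 spans 5.74 to 7.10, and the other 5 panels stay nearly flat.

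The 6 remaining XTHs (XTH18, XTH20, XTH21, XTH26, XTH29 and XTH33) were called at no time, with differences of -0.35 to 0.37 and a smallest adjusted p of 0.0794. XTH18, XTH20, XTH21 and XTH26 are known mainly from roots, XTH26 from root hairs. All 4 lay between 4.38 and 5.20 on every array. XTH33, which is predicted to be anchored in the membrane, had a difference at 48 h of -0.34 (adjusted p = 0.362), and of -0.49 with letters as a block (adjusted p = 0.0142).

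TBL45 (AT2G30010) had the largest fall of all members. It read 10.57, 10.55 and 10.89 at 0 h, 9.39 and 9.44 at 4 h, 7.94 and 8.04 at 8 h, 7.26 and 7.71 at 24 h, and 6.18 and 6.88 at 48 h. No later group overlapped the end of the night, and both 48 h arrays were the lowest of the series. The fall was -1.26 ± 0.21 at 4 h (adjusted p = 0.00376), -2.68 at 8 h (6.40-fold, 2.30e-05), -3.19 at 24 h (9.12-fold, 5.70e-06) and -4.14 at 48 h (17.7-fold, 6.08e-07). All 4 calls were kept in every alternative of fit and scaling and without any 1 array. No role is given for TBL45 in the sources used here.

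Of the 5 measured TBLs known as xylan acetyltransferases (TBL28, TBL30, TBL32, TBL34 and TBL35), 3 fell by 8 h and later, and 2 were not called. Over all probe sets 15.0%, 17.2% and 20.3% were lower at 8, 24 and 48 h. TBL28 (AT2G40150) read 7.42, 7.23 and 7.11 at 0 h, 6.33 and 6.32 at 4 h, 5.28 and 5.54 at 8 h, 5.75 and 5.37 at 24 h, and 5.67 and 5.19 at 48 h. The fall was -0.93 ± 0.18 at 4 h (adjusted p = 0.00682), -1.84 at 8 h (3.59-fold, 6.61e-05), -1.69 at 24 h (7.69e-05) and -1.82 at 48 h (2.83e-05), with the 8, 24 and 48 h arrays in 1 overlapping range. The 4 h call was lost without 4 h A (-0.93, adjusted p = 0.0545) or B (-0.92, 0.0536).

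TBL34 (AT2G38320) and TBL35 (AT5G01620) are known to act together on xylan. TBL34 read 5.34, 5.40 and 5.40 at 0 h, 4.89 and 4.87 at 4 h, 4.64 and 4.72 at 8 h, 4.45 and 4.86 at 24 h, and 4.34 on both arrays at 48 h. Its fall was small and even: -0.51 ± 0.12 at 4 h (adjusted p = 0.0219), -0.70 at 8 h (0.00231), -0.73 at 24 h (0.00145) and -1.04 at 48 h (2.06-fold, 1.07e-04). The 4 h call was lost without 0 h B (-0.50, adjusted p = 0.0605) or C (-0.50, 0.0577) and without 4 h A (-0.52, 0.115) or B (-0.50, 0.127).

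TBL35 set out later. It read 6.72, 6.68 and 6.64 at 0 h, 6.74 and 6.87 at 4 h, 6.35 and 6.18 at 8 h, 5.95 and 6.12 at 24 h, and 5.76 and 5.73 at 48 h. The 4 h arrays lay above the end of night arrays and those of 8, 24 and 48 h below them. Its falls were -0.41 ± 0.10 at 8 h (adjusted p = 0.0149), -0.64 at 24 h (0.00107) and -0.93 at 48 h (6.85e-05), and the 8 h call was lost without 8 h B (-0.33, adjusted p = 0.120). TBL30 and TBL32 had differences between -0.06 and 0.14. The TBL32 probe set is of a kind that Affymetrix marks as able to match more than 1 transcript, so its signal may not be that gene's alone.

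TBL23, TBL25 and TBL26 are known as mannan acetyltransferases. TBL26 (AT4G01080) read 7.17, 6.69 and 6.76 at the end of the night and 6.13 on the lone 2 h array, and then 5.93 and 5.95 at 4 h, 6.07 and 5.91 at 8 h, 6.03 and 5.56 at 24 h, and 5.82 and 5.70 at 48 h. It was down by 4 h and changed little afterwards, with differences of -0.93, -0.88, -1.08 and -1.12 (± 0.18) and adjusted p = 0.00620, 0.00443, 0.00115 and 6.47e-04. Without 4 h A the 4 h call was lost (-0.92, adjusted p = 0.0544). TBL25 (AT1G01430) read 8.82 and 9.30 at 48 h against 9.69, 9.65 and 9.77 at the end of the night. It was called at 48 h only, lower by 0.65 ± 0.17 (adjusted p = 0.0137). Without 48 h B the difference was -0.41 and not called. The 8 h arrays (9.17 and 9.30) and 24 h arrays (9.33 and 9.59) also lay below the end of night arrays, with no call. The F-test over the 8 time points did not call TBL25 (adjusted p = 0.146). TBL23 was called at no time.

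Of the 14 TBLs outside the xylan and mannan groups, 5 fell, of which TBL45 is described above and the others were TBL36, TBL37, TBL38 and TBL39. At 4, 8, 24 and 48 h 1, 4, 3 and 2 of the 14 were lower, beside 8.78%, 15.0%, 17.2% and 20.3% of all probe sets. TBL36 (AT3G54260) read 8.61, 8.70 and 8.82 at 0 h, 8.12 and 8.32 at 4 h, 7.87 and 7.49 at 8 h, 7.55 and 7.56 at 24 h, and 6.77 and 7.09 at 48 h. The fall deepened with time, from 8 h onwards: -1.03 ± 0.15 at 8 h (adjusted p = 7.21e-04), -1.16 at 24 h (2.67e-04) and -1.78 at 48 h (3.44-fold, 1.09e-05). TBL37 (AT2G34070) was called lower at 8 h only, with 9.23 and 8.75 at 8 h against 9.83, 9.77 and 9.75 at the end of the night. That difference was -0.79 ± 0.15 (adjusted p = 0.00380). Its 4 h arrays (9.68 and 9.35) and 48 h arrays (9.41 and 9.46) also lay below the end of night arrays, with no call.

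The calls of TBL39 and TBL38 were lost under several alternatives. TBL39 (AT2G42570) read 7.38 and 7.37 at 8 h against 7.81, 7.63 and 7.98 at the end of the night (-0.43 ± 0.12, adjusted p = 0.0275). That call was lost with median centring of the arrays (-0.36, adjusted p = 0.0762), with trend and robust settings (0.0645), with only the 2 time points (0.0596), without 0 h A (-0.43, 0.0661) or C (-0.34, 0.0790) and without 8 h A (-0.44, 0.107) or B (-0.42, 0.116). TBL38 (AT1G29050), linked to the removal of acetyl groups from pectin in seed mucilage cells, read 7.47 and 7.06 at 24 h against 8.40, 8.18 and 7.88 at the end of the night (-0.89 ± 0.29, adjusted p = 0.0426). Its call was lost with median centring (-0.82, adjusted p = 0.0600), without 0 h A (-0.76, 0.122) or B (-0.88, 0.0929), without 24 h B (-1.09, 0.0695) or C (-0.68, 0.253), and without either 4 h array (0.0621) or either 8 h array (0.0571).

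**Figure D5:**
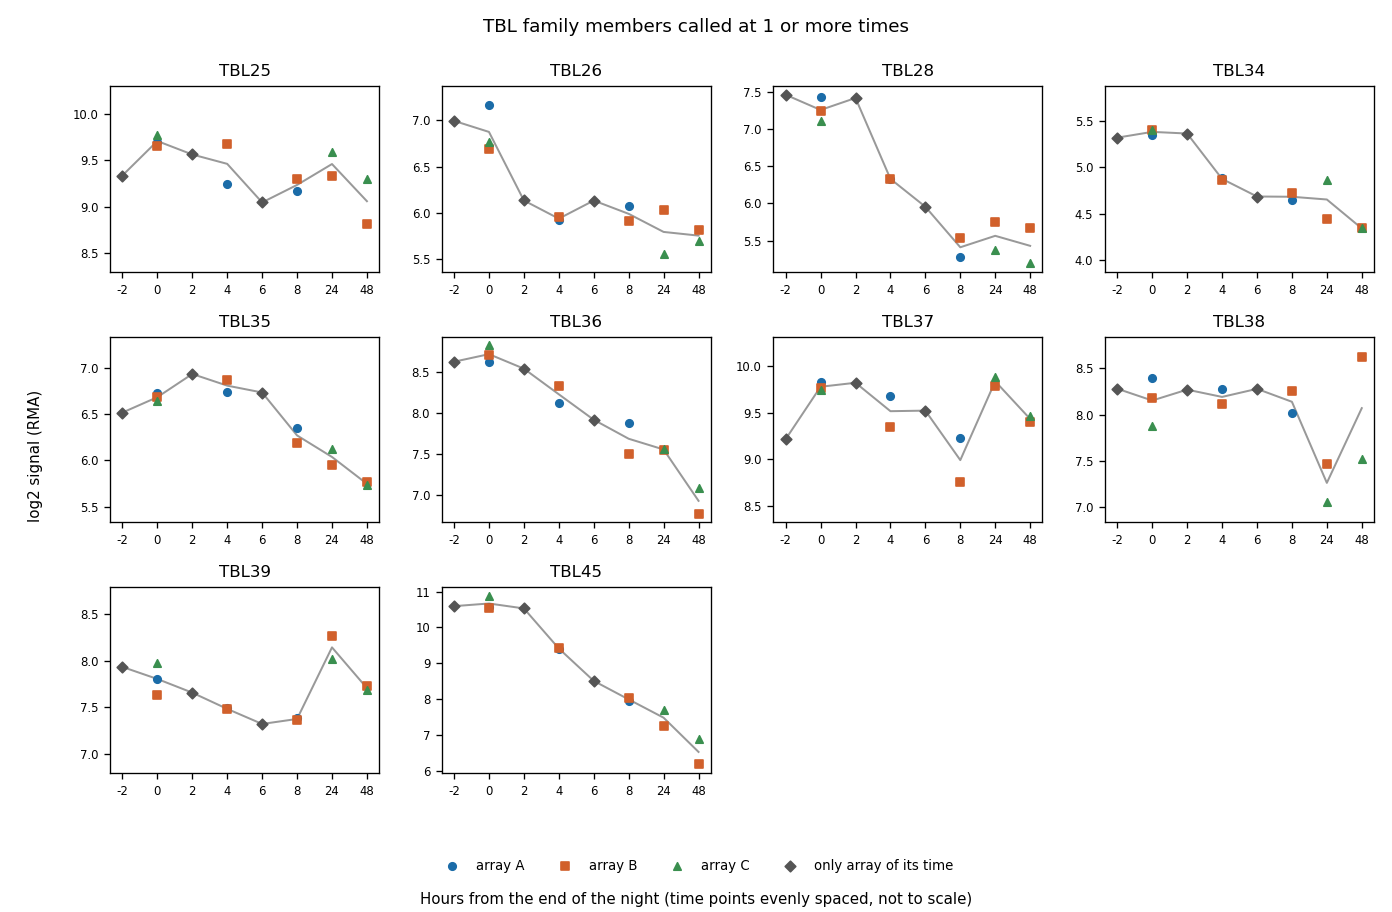
The log2 signal on each of the 14 arrays for the 10 TBLs called at 1 or more times, against hours from the end of the night (time points evenly spaced), with markers for arrays A, B and C and for times with a single array and a line through the time point means. TBL28, TBL35, TBL36 and TBL45 decline, while TBL37 and TBL39 are low at 8 h and stand at or above the end of night level at 24 h.

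The 12 TBLs called at no time (TBL15, TBL16, TBL18, TBL19, TBL20, TBL21, TBL23, TBL30, TBL32, TBL41, TBL42 and TBL43) differed from the end of the night by -0.51 to 0.41, with a smallest adjusted p of 0.0511 for TBL19 at 48 h (-0.51). With letters as a block TBL19 was lower at 4, 8 and 48 h (-0.50, -0.46 and -0.45; adjusted p = 0.0319, 0.0349 and 0.0275) and TBL18 higher at 24 and 48 h (0.36 and 0.37; 0.0279 and 0.0210).

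Arrays at -2 h, 2 h and 6 h, with 1 each, add to the early course. A slope over the 10 arrays of -2 h to 8 h was called downward for 12 members and upward for 4, beside 19.7% and 16.5% of all probe sets. These were 4 expansins, 2 XTHs and 6 TBLs downward and 3 expansins and 1 XTH upward. With letters as a block 2 upward slopes were called, and without 8 h B 2 TBLs had upward slopes. The steepest were EXPA16 (0.41 ± 0.04 log2 units per hour, adjusted p = 1.19e-05), TBL45 (-0.31 ± 0.03, 1.28e-05), EXLB1 (-0.30 ± 0.03, 1.38e-05), EXLA1 (0.28 ± 0.04, 2.08e-04), XTH16 (-0.26 ± 0.02, 6.53e-06) and TBL28 (-0.22 ± 0.02, 2.11e-05).

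The lone arrays differ in where each gene stood at 2 h. TBL45 read 10.53 and TBL28 7.41 on the 2 h array, each near or inside its end of night range (10.55 to 10.89 and 7.11 to 7.42), and 8.51 and 5.95 on the 6 h array. EXLA1 likewise read 6.69 at 2 h, within its end of night range of 6.52 to 6.79, and 8.40 at 6 h. By contrast EXPB1 (5.85), TBL26 (6.13), XTH16 (7.91) and EXLB1 (8.34) were already below their end of night ranges at 2 h. EXLB1 read 8.68 to 8.99 at the end of the night, against 9.51 on the array at -2 h. Each of these times has 1 array, so none of these positions has a replicate.

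Slope calls of 5 members depended on the fit. EXLA2 (0.07 per hour, adjusted p = 0.0299) was not called with letters as a block (0.261), nor without 0 h A (0.0634) or C (0.0585) or 8 h B (0.0760). XTH19 (0.11, 0.0177) was not called with the block (0.110), nor without 8 h A (0.0504) or B (0.068 per hour, 0.0679). TBL26 (-0.11, 0.00310) and TBL39 (-0.06, 0.00127) were not called with the block (0.0709 and 0.0519), and with it TBL37 was (-0.10, 0.0121).

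From 4 h to 8 h, 4 members fell and 1 rose, beside 2.18% and 1.66% of all probe sets. EXPA16 was higher at 8 h than at 4 h by 2.50 ± 0.32 (5.64-fold, adjusted p = 0.00427), a call kept in all alternatives of fit and scaling and without any 1 array. EXPB3 (-1.44 ± 0.24, adjusted p = 0.0126), TBL45 (-1.42 ± 0.23, 0.0123), TBL28 (-0.92 ± 0.19, 0.0332) and TBL35 (-0.54 ± 0.11, 0.0334) were lower at 8 h. With letters as a block 6 members were lower and 3 higher. Over all probe sets 1410 were lower and 1049 higher with the block, against 497 and 377 without it. EXLA1 (1.06, adjusted p = 0.0161) and XTH19 (1.17, 0.00604) were the added rises of members, and XTH32 (-0.70, 0.0288) and TBL37 (-0.53, 0.0231) the added falls. The 4 falls numbered 0 without 4 h A or B or 8 h B, 1 without 8 h A and 2 without 0 h B. The rises numbered 3 without 8 h A and 2 without 0 h C or either 48 h array.

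Between 8 h and 24 h, 3 members were higher and 0 lower by limma, beside 1.35% and 1.89% of all probe sets, and at an unadjusted p under 0.05 the counts were 5 and 2. The 3 were XTH16 (1.33 ± 0.28, adjusted p = 0.0363), TBL37 (0.85 ± 0.17, 0.0294) and TBL39 (0.77 ± 0.14, 0.0185), each of which had been lower at 8 h than at the end of the night. Their 24 h arrays read 7.37 and 8.03, 9.79 and 9.89, and 8.27 and 8.03, against 6.38 and 6.35, 9.23 and 8.75, and 7.38 and 7.37 at 8 h. The XTH16 call was also lost without 0 h C or either 4 h array. All 3 were lost without 8 h B or either 24 h array, and 1 was left without 8 h A or 0 h A or B. With letters as a block XTH32 (-1.16, adjusted p = 0.00858) and TBL45 (-0.75, 0.0133) were lower at 24 h than at 8 h. Over all probe sets 759 were lower with the block, against 430 without it.

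Between 24 h and 48 h, 4 members were lower and 0 higher by limma, beside 2.55% and 2.48% of all probe sets, and at an unadjusted p under 0.05 the counts were 13 and 3. These were EXPA8 (-2.30 ± 0.43, adjusted p = 0.0180), XTH19 (-1.79 ± 0.28, 0.00733), EXPA16 (-1.40 ± 0.32, 0.0401) and EXLA2 (-0.90 ± 0.16, 0.0149). The 48 h arrays B and C read 6.28 and 7.68, 5.73 and 5.48, 8.46 and 9.52, and 7.04 and 6.70 for these genes, against 9.09 and 9.47, 7.62 and 7.17, 10.34 and 10.43, and 7.87 and 7.67 on the 24 h arrays B and C. EXPA16 rested on 48 h B, without which its difference was -0.86 (adjusted p = 0.130), and its call was also lost without 0 h A or B, either 4 h array or either 24 h array. Without 48 h B the other 3 falls were called. The 4 falls numbered 0 without 24 h B and 1 without 24 h C, and without 48 h C 8 were lower and 2 higher. With letters as a block 8 were also lower, now with EXPA4 (-1.10), TBL36 (-0.62), TBL45 (-0.96) and XTH33 (-0.71). The block also gave 2 higher, EXLB1 (1.23) and TBL38 (0.81), and these added calls had adjusted p from 0.00173 to 0.0319. Over all probe sets 1498 were lower and 1474 higher with the block, against 579 and 565 without it.

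Some members are neighbours in the genome. With no other coding gene between them lie EXLA3 and EXLA1 and, in the same way, XTH18 and XTH19, TBL28 and TBL30, and TBL21 and TBL19. In 3 of these 4 pairs 1 gene was called and its neighbour was not. At 24 h EXLA1 differed from the end of the night by 2.59 and EXLA3 by 0.14, XTH19 by 1.93 and XTH18 by -0.16, and TBL28 by -1.69 and TBL30 by -0.06. In the fourth pair neither was called without the block on letters. The uncalled partners read 4.49 to 5.11 (EXLA3), 4.51 to 5.00 (XTH18) and 4.51 to 4.85 (TBL30) over the 14 arrays, and no test set the 2 genes of a pair against each other.

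Of the 18 members whose mean signal was in the dimmest 33.3% of all probe sets, 1 (TBL34) was called at 4, 8, 24 or 48 h, beside 15.5% of all probe sets that dim. Of the other 31 members 20 were, beside 63.7% of all other probe sets, a share close to that background. The authors' table used here has no detection calls, so whether the dim members were above background is not known from it.

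Genes that make the polymers on which these families act were described from a list of names. CSLC genes build the xyloglucan backbone, and of 5 measured, 1 was lower at 4 h, 2 at 8 h, 2 at 24 h and 4 at 48 h, and 0 were higher, beside 8.78%, 15.0%, 17.2% and 20.3% of all probe sets lower at those times. These few genes are part of the 9 listed synthases, and none of the counts was tested against these shares. CSLC5 fell at all 4 times, with differences of -0.51, -0.52, -0.92 and -1.82 (± 0.15 at 48 h; adjusted p = 0.0409, 0.0255, 9.67e-04 and 8.45e-06). ATCSLC08 fell from 8 h (-0.84 at 48 h), and CSLC04 (-1.13) and CSLC6 (-1.14) at 48 h. CSLA03, of the family that makes mannan backbones, fell at 8, 24 and 48 h, with differences of -1.86 ± 0.31, -1.71 and -2.33 (adjusted p = 2.50e-04 at 48 h). CSLD2, a cellulose synthase-like gene of root hair growth, rose by 0.71 ± 0.13, 0.70 and 1.28 at those times, and GAUT15, of a family of pectin synthases, by 0.43 at 48 h. With CSLA01, these 9 synthases had 5 lower and 2 higher at 48 h, beside 20.3% and 20.5% of all probe sets.

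Other wall genes on the list gave fewer calls. PME61, a pectin methylesterase by name, fell at 8, 24 and 48 h, with differences of -1.27 ± 0.20, -2.36 and -2.25, and ATPMEPCRB at 48 h (-0.93), whereas AT4G02300 and BGAL16 were not called. Of the 4 genes listed under cellulose synthesis and the irregular xylem names, GUT2 fell at 24 h (-0.46) and 48 h (-0.50); it takes part in xylan rather than cellulose synthesis. The 2 genes that matched the wall protein names, PRP39 and PRP39-2, are pre-mRNA splicing factors by name and were not called. Among 3 relatives of the families that carry another symbol, AT2G31110 (TBL40) was higher at 4 h (0.94 ± 0.14, adjusted p = 0.00200) and lower at 24 h (-0.66) and 48 h (-1.50, 2.17e-05), while EXGT-A3 (XTH27) and AT4G30380 (EXLB2) were not called.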

How the data were processed

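ATH1 arrays of 14 rosette samples were used. The deposited values are log2 signals per probe set after RMA by the authors, per the submitters' processing notes, with the software, its version and the chip definition not given in the sources used here. All 14 columns were matched to samples, and no other column of values was present. Of 22810 probe sets, 64 controls were left out and 22746 tested with no filter.

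Differences came from limma 3.58.1 in R 4.3.3 (lmFit, eBayes, two-sided), in 1 fit of 14 arrays with 8 time points as a factor and 6 residual degrees of freedom, and slopes from a fit on hours over the 10 arrays of -2 h to 8 h. Each comparison had its own Benjamini-Hochberg adjustment over all probe sets. Precision is limited by the number of arrays. The fit was tested on simulated data with noise independent between arrays, so that test does not cover the correlation of same-letter arrays. Tables and figures used matplotlib 3.10.9, numpy 2.4.6 and pandas 2.3.3 in Python 3.11.15. The array annotation gave 1 gene for 13513 probe sets, 13436 of them matched to TAIR10.1.

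Up to 4 called rises and 4 falls per family and comparison with the end of the night (3 between later times) were to be named; every member is accounted for. The members, the lists of related genes and the roles used to group members were chosen with earlier results of these data known. Deviations from time point means correlated at 0.170 to 0.580 for same-letter arrays (16 pairs) and at -0.580 to 0.365 for the others (32 pairs). These correlations are across probe sets that are not independent. The pairs are not independent either: after the end of the night, the deviations of a replicated time point's arrays are exact opposites. Each correlation therefore recurs in another pair with its sign reversed, and -0.580 mirrors 0.580. On this limited ground the letters were taken to pair samples, and a replicate block was an alternative. The main fit ignored this pairing, and so do calls and adjusted p given without mention of the block. Other alternatives were median centring, a second quantile normalization, leaving out the dimmest 33.3% of probe sets, trend and robust settings, fitting only the time points compared, stricter thresholds and leaving out each array. Sequences were not used here.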

Additional observations from a re-analysis of the deposited data

Results flagged for a closer look

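For 12 pairs of a member and a step between successive replicated times, the level differed between the 2 times by limma's test of that difference (adjusted p under 0.05). No lit samples were measured, and in the steps from 4 h to 8 h and from 8 h to 24 h the hour of the day changed too. From 4 h to 8 h these were EXPA16 (2.50), EXPB3 (-1.44), TBL45 (-1.42), TBL28 (-0.92) and TBL35 (-0.54). From 8 h to 24 h they were XTH16 (1.33), TBL37 (0.85) and TBL39 (0.77). From 24 h to 48 h they were EXPA8 (-2.30), XTH19 (-1.79), EXPA16 (-1.40) and EXLA2 (-0.90), all as log2 differences of the later minus the earlier time. All but the first of these 12 lost their call when some 1 array was left out, and none changed direction.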

How the results depend on the processing

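Of 89 calls of members (61 against the end of the night, 12 between later times and 16 slopes), none changed direction under any alternative, and 57 were kept under every alternative of fit and scaling and without any 1 array. An added minimum of 2-fold left 3 of 8 falls at 4 h, 7 of 14 at 8 h, 7 of 12 at 24 h and 2 of 4 from 4 h to 8 h, and 1 of 3 rises from 8 h to 24 h. An adjusted p under 0.01 left 0 falls from 4 h to 8 h, 0 rises from 8 h to 24 h, 1 fall from 24 h to 48 h and 2 upward slopes. The 1 rise from 4 h to 8 h became 3 with median centring, without the dimmest 33.3% of probe sets, with trend and robust settings and with the replicate block. The replicate block also gave 2 falls from 8 h to 24 h, 8 falls and 2 rises from 24 h to 48 h, and 2 upward slopes, and in comparisons and slopes it changed no member's call beyond those given above. Leaving out 1 array gave 2 to 10 falls and 2 to 3 rises at 4 h, 11 to 15 and 2 to 5 at 8 h, 11 to 14 and 3 to 5 at 24 h, and 13 to 16 and 2 to 3 at 48 h. It gave 0 to 4 falls and 1 to 3 rises from 4 h to 8 h, 0 to 1 and 0 to 3 from 8 h to 24 h, and 0 to 8 and 0 to 2 from 24 h to 48 h. Slopes numbered 12 to 14 downward and 3 to 5 upward, and 17 to 21 members differed among the 8 time points. Where a time point kept 1 array, it was assumed to vary like the others. The causes were not tested, except that fewer arrays give fewer degrees of freedom. Leaving out an array of a compared time also gave fewer calls over all probe sets, except from 24 h to 48 h without 48 h C. Averaging a gene's probe sets was not run because each member has 1. Signal over background is not known from the values.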
